A study of Mus musculus with 36 samples.

Results

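Chromatin accessibility of the Ikaros line was compared with that of the control line at the last point of a time course of 24 h in B3, a mouse pre-B cell line. The comparison rests on 6 of the 36 DNase-seq samples of the series, 3 per line, collected at 24 h, and covers all 52788 DNase I hypersensitive sites (DHS), the regions where the enzyme DNase I cuts open chromatin. Cells of the Ikaros line carried an MSCV retroviral vector for HA-tagged wild type Ikaros joined to ERt2, a hormone-binding domain of the estrogen receptor, with IRES-GFP behind it. Control cells carried the same kind of vector with ERt2 and IRES-GFP and no Ikaros. GFP-positive cells were sorted in both, neither source describes a line as a single clone, and both lines received 0.5 µM 4-hydroxytamoxifen, so that the drug was common to the groups compared. The study's methods put the drug 24 h before collection and the sample titles name 24 h, whereas the treatment note shared by the labels names 2 h for each of these samples. Replicates 4, 5 and 6 were cultures of batches 11, 12 and 13, in which both lines were harvested together.

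Ikaros is a zinc finger transcription factor of lymphocytes that binds GGGA-containing elements and recruits chromatin remodelling and histone deacetylase complexes. In pre-B cells it is known for shutting down the surrogate light chain and growth genes as cells leave the cycle and differentiate. The hormone-binding domain keeps the fusion protein in the cytoplasm until tamoxifen releases it to the nucleus. Runx factors bind a TGTGGT core and Ebf factors a palindromic core, and both act with Ikaros on B-lineage genes. Accessibility is given throughout as the deposited log2 value of a DHS, and a difference is Ikaros minus control on that log2 scale. A DHS was called when limma's moderated test, adjusted over all 52788 DHS by Benjamini-Hochberg, gave a p under 0.05. In these bulk libraries a larger share of cells with an open site and a wider opening in each cell cannot be told apart.

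The sequences below are 200 bp windows centred on DHS that carried elements found at unequal shares among called DHS, in GRCm38 (RefSeq) on the plus strand. The Cecr2 and 4930470P17Rik DHS are 156 and 130 bp wide, so their windows reach past them. The first group was higher in the Ikaros line and holds TGTGGTT, the Runx-type element, or its reverse complement, in capitals.
Tmtc1 intron DHS, chr6:148344990-148345189: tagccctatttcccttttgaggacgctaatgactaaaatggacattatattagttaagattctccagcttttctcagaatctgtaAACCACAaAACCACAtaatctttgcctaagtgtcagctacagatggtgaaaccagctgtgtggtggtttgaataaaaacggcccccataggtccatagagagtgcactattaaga
Cecr2 intergenic DHS, chr6:120641855-120642054: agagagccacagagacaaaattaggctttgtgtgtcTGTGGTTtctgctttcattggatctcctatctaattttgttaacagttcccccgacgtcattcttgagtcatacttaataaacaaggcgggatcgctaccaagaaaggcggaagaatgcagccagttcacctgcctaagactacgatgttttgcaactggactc
Fli1 intron DHS, chr9:32425571-32425770: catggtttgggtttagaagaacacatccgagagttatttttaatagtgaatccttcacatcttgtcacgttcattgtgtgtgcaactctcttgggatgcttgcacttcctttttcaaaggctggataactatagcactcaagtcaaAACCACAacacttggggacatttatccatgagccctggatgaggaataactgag
The second group was lower in the Ikaros line and holds TCCC and GGGA with any 2 bases between them, the Ebf-type element, in capitals.
4930470P17Rik intron DHS, chr2:170583271-170583470: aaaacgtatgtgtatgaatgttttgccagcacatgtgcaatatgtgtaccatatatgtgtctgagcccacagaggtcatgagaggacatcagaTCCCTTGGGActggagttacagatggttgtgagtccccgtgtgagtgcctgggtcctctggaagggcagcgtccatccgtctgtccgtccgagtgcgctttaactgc
Clic5 promoter, chr17:44188949-44189148: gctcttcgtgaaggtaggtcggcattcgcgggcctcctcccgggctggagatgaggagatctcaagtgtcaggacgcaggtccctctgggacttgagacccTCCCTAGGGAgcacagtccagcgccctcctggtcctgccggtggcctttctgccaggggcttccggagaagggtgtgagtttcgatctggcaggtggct
Pik3cd intron DHS, chr4:149696623-149696822: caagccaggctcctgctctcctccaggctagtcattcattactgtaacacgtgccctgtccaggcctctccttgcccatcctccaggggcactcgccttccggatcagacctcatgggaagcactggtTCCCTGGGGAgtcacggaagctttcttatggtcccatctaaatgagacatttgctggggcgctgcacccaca
The window in the Tmtc1 intron held the Runx-type element at 2 places, and the other windows held their element at 1. A match describes the letters only and does not show that a factor was bound. The Ebf-type element also holds the GGGA of Ikaros elements, so it does not tell these factors apart.

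The 6 libraries had medians of 3.96 to 4.08 over the DHS. The replicate SD had a median of 0.22 in the Ikaros line and 0.27 in the control line, and the Pearson correlation between replicates, across DHS, lay between 0.787 and 0.835. No pair held identical values. Read depth per library is unknown from these values. The files had been corrected by ARSyN, a method that estimates noise from the data, and the 12 group means of the series span only 6 of 11 possible dimensions, so the groups are not free of each other and the replicate spread is what that correction left. Of 11 pre-B markers, 9 had a promoter DHS, which lay at a median level percentile of 92.1. Rag2 and Dntt had none. A promoter DHS was present for 1 of 9 T cell markers, 1 of 9 myeloid, 2 of 7 erythroid and 1 of 5 muscle markers, and none of the defining markers Cd3e, Csf1r, Mpo, Gata1 or Myod1 had one. Over the measured pre-B markers, the mean level ranged from 4.58 to 4.84 in the Ikaros libraries and from 4.90 to 5.18 in the control libraries. None of these 9 promoter DHS was called at 24 h. Among all DHS in the highest quartile of level, the median difference of Ikaros minus control was -0.11.

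At 24 h, 700 DHS (1.33%) differed between the lines. Of these, 427 (0.809% of all DHS) were higher in the Ikaros line and 273 (0.517%) were lower. In 698 of the 700 the lines were fully separated, the 3 values of one all above those of the other, whereas among all DHS 15.1% lay wholly above and 10.4% wholly below. The called differences had a median of 1.27 in the higher group and -0.82 in the lower group, and the median over all DHS was 0.055.

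The called groups lay in different parts of the genome. Introns held 47.8% of the higher DHS, intergenic DNA 40.7%, exons 4.68% and promoters, taken as sites within 1000 bp of a transcription start, 6.79%. Among the lower DHS 31.1% were at promoters, 26.0% in introns, 33.7% between genes and 9.16% in exons. All DHS divided into 25.9% at promoters, 35.4% in introns, 32.9% between genes and 5.77% in exons. The higher DHS were AT-rich, with a median GC content of 41.1% against 54.8% in the lower DHS and 50% in all. Their median level over the series was 3.52, below the 3.95 of all DHS, and that of the lower DHS was 4.86. A protein-coding start lay within 50000 bp of 54.3% of the higher, 87.2% of the lower and 75.6% of all DHS.

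**Figure D1:**
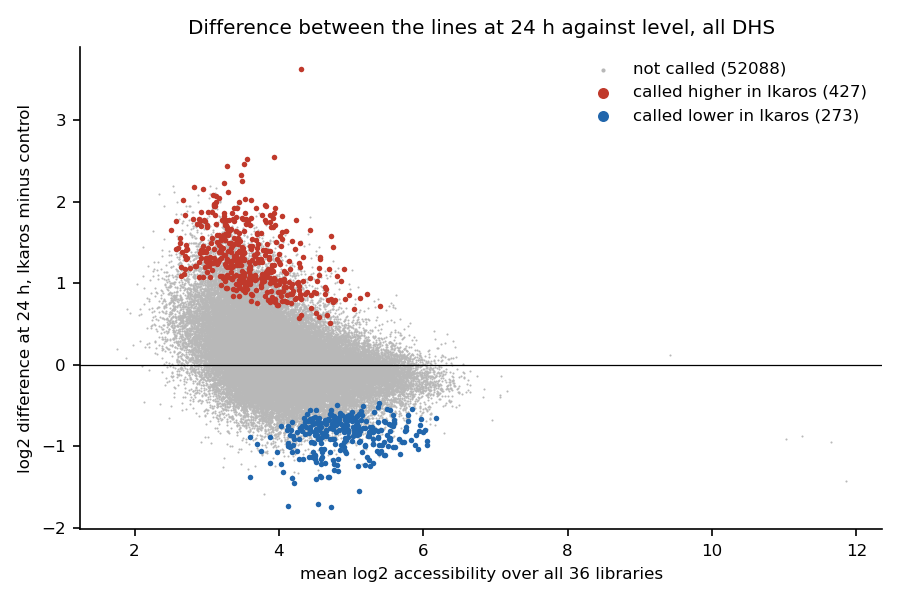
Each point is 1 of the 52788 DHS, with its mean log2 accessibility over all 36 libraries on the horizontal axis and the log2 difference of Ikaros minus control at 24 h on the vertical axis. The 427 red DHS called higher lie mostly to the left, at low levels, and the 273 blue DHS called lower lie at middle and high levels, while the grey cloud slopes downward.

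The difference moved with level across the whole table and not only among called DHS. In quartiles of mean level, the median difference was 0.36 in the lowest, 0.11 and -0.018 in the middle quartiles and -0.11 in the highest. The lowest quartile held 222 of the calls in the higher direction and 0 in the lower, and the highest held 30 and 223. When smooth trends with level, GC content and width were taken out of each library, 342 DHS were called, 163 higher and 179 lower, of which 210 were among the 700. Centring each library on its median left 600 calls, with 259 (43.2%) higher and 341 lower, against 61.0% higher as deposited, and quantile normalization gave 416 higher and 402 lower. The direction that prevails among the calls therefore changed with the scaling. The median difference over all DHS was 0.055 as deposited, -0.014 after median centring and -0.017 after quantile normalization.

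Leaving out any library lowered the number of calls. Without Ikaros replicate 4, 5 or 6 of 24 h, 110, 142 and 289 DHS were called, and without control replicate 4, 5 or 6 the counts were 231, 298 and 211. Leaving out replicate 4, 5 or 6 from all 12 groups gave 66, 10 and 14 calls. With the batch as a replicate block, 505 were called, 310 higher and 195 lower.

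The promoter and distal DHS named by rank were taken from called DHS with separate groups, so their lack of overlap follows from the choice. Among promoters of protein-coding genes, the 7 with the highest test statistic in the higher direction belonged to Slc30a5, Poli, Klrd1, Satb1, Mrgpra1, Klhl15 and Cd36. They include genes for a zinc transporter of the secretory pathway (Slc30a5), a translesion DNA polymerase (Poli), a chromatin organiser of lymphocytes (Satb1) and a cell-surface receptor of natural killer cells (Klrd1). The Slc30a5 promoter DHS (chr13:100832098-100832598) measured 5.79, 5.26 and 5.03 in the Ikaros libraries and 4.16, 4.12 and 4.29 in the control libraries, and every Ikaros value was above every control value. It was 2.25-fold higher (log2 difference 1.17, SE 0.20, limma adjusted p = 0.00287). The Satb1 promoter DHS (chr17:51814118-51814804) measured 4.62, 4.25 and 4.00 in the Ikaros libraries and 2.67, 2.93 and 3.38 in the control libraries. It was 2.46-fold higher in the Ikaros line (log2 difference 1.30, SE 0.24, limma adjusted p = 0.00653), with the lowest Ikaros value well clear of the highest control value. At the Klrd1 promoter (chr6:129591465-129591971) the values were 4.01, 4.00 and 3.72 in the Ikaros libraries and 2.78, 2.68 and 2.45 in the control libraries, and the 3 libraries of each line lay close together (log2 difference 1.27, SE 0.23, limma adjusted p = 0.00436). The Poli promoter DHS (chr18:70529255-70529397) measured 5.58, 5.43 and 5.05 in the Ikaros libraries and 2.90, 3.86 and 4.36 in the control libraries, with the control libraries spread over more than 1 log2 unit (log2 difference 1.65, SE 0.28, limma adjusted p = 0.00297). Klhl15, which encodes an adaptor of a cullin ubiquitin ligase, had control values of 2.24, 3.65 and 4.17 and Ikaros values of 5.39, 5.02 and 4.97, so that the gap depended on which control library was compared (log2 difference 1.78, SE 0.39, limma adjusted p = 0.0190). Cd36, a scavenger receptor for lipids, and Mrgpra1, a G protein-coupled receptor, were the promoters of lowest level, with control means of 1.73 and 2.08 and differences of 1.65 and 1.94 (limma adjusted p = 0.0205 and 0.0129).

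The calls of Slc30a5, Poli and Klrd1 held whichever single library of 24 h was left out, with limma adjusted p up to 0.0469, 0.0411 and 0.0445. Satb1 missed the threshold without Ikaros replicate 4 (limma adjusted p = 0.0729). Mrgpra1 missed it without that library or control replicate 6, Klhl15 without Ikaros replicate 4 or 5 or control replicate 4, and Cd36 without Ikaros replicate 4 or 5 or control replicate 4 or 6, with adjusted p up to 0.0857, 0.141 and 0.142 in limma. With the trends removed, Slc30a5 (limma adjusted p = 0.00300) and Poli (0.0124) remained past the threshold, and the other 5 had values of 0.0767 to 0.199. Removing the trends took the differences of Satb1 and Cd36 to 0.73 and 1.03. The GC content of the 7 was between 37.1% and 41.7%.

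The 7 promoter DHS with the strongest test statistic in the lower direction were at Egr1, Ptpn7, Zmpste24, Faap20, Hist1h4j, Ankrd2 and Clic5. Egr1, an immediate early zinc finger factor, had a promoter DHS (chr18:34859681-34860274) at 5.09, 4.91 and 4.90 in the Ikaros libraries and 5.91, 5.91 and 5.78 in the control libraries. The 3 control libraries agreed within 0.2 log2 units and lay above all Ikaros values. The DHS was 1.86-fold lower in the Ikaros line (log2 difference -0.90, SE 0.15, limma adjusted p = 0.00304). Ptpn7 encodes a tyrosine phosphatase of blood cells that acts on MAP kinases. Its promoter DHS (chr1:135132530-135132703), which also lies at a start of Ptprv, measured 5.11, 5.19 and 5.13 in the Ikaros libraries and 6.25, 5.69 and 6.35 in the control libraries (log2 difference -0.95, SE 0.17, limma adjusted p = 0.00373). The largest difference of the 7 was 2.60-fold, at the histone H4 gene Hist1h4j (chr13:21734906-21735111), with 3.70, 3.88 and 3.86 in the Ikaros libraries and 5.38, 5.23 and 4.97 in the control libraries (log2 difference -1.38, SE 0.27, limma adjusted p = 0.00860). At Zmpste24, the protease that matures lamin A, the DHS (chr4:121097987-121098514) measured 4.67, 4.58 and 4.34 in the Ikaros libraries and 5.19, 5.41 and 5.39 in the control libraries (log2 difference -0.80, SE 0.14, limma adjusted p = 0.00436). Faap20, of the Fanconi anaemia core complex, differed by -0.81, Ankrd2 by -0.64 and the chloride channel gene Clic5 by -0.81 (limma adjusted p = 0.00619, 0.00975 and 0.0100).

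Egr1, Ptpn7, Zmpste24 and Faap20 stayed past the threshold whichever 24 h library was left out. Hist1h4j missed it without Ikaros replicate 4 (limma adjusted p = 0.0637), Ankrd2 without Ikaros replicate 5 (0.0854) and Clic5 without Ikaros replicate 4 or 5 or control replicate 6 (up to 0.0715). With the trends removed, the limma adjusted p was 0.180 for Ankrd2, whose difference was then -0.36, and 0.0826 for Clic5, and the other 5 passed. Over all 85 lower promoter DHS, 69 of them at protein-coding genes, the median difference was -0.80 at 24 h and 0.21 at 0 h, beside medians of -0.046 and 0.34 for all 13657 promoter DHS. The 29 higher promoter DHS had a median GC content of 42.6%, the 85 lower 57.2% and all promoter DHS 59.0%.

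**Figure D2:**
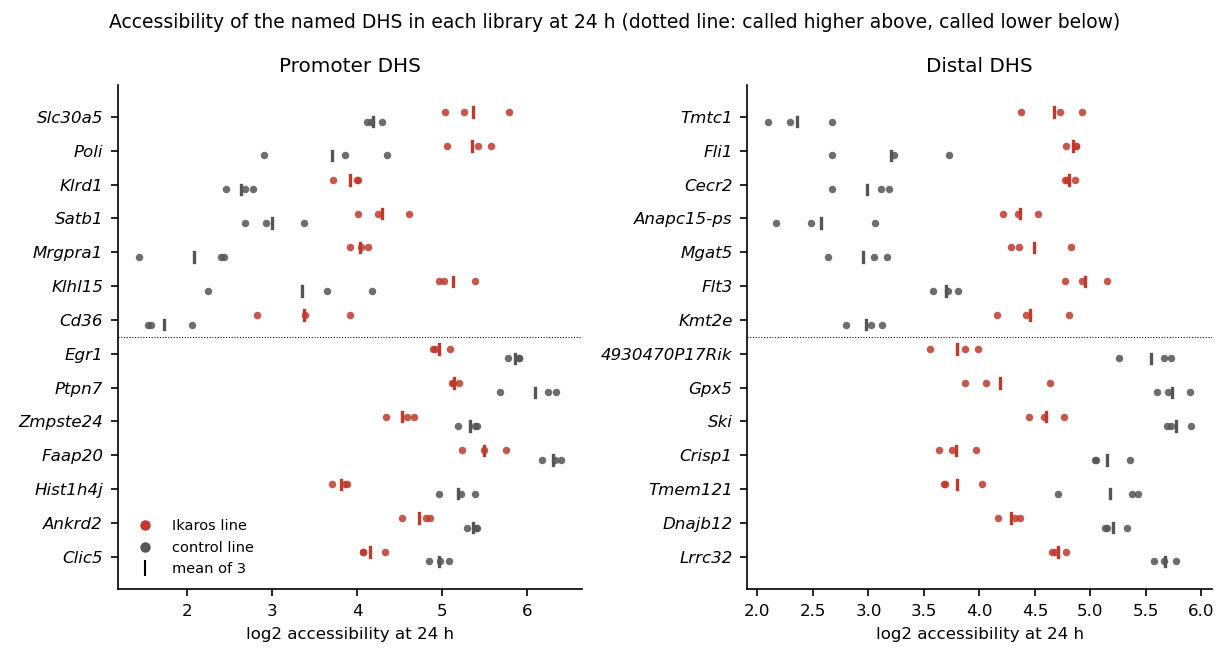
The points are the deposited log2 accessibility of each library at 24 h (red, Ikaros line; grey, control line) and the bars are means of 3, for the 14 promoter DHS (left) and 14 distal DHS (right) named by the rule, the upper 7 called higher and the lower 7 called lower. In every row the 3 red and the 3 grey points do not overlap, which the rule required.

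The 14 distal DHS with the strongest test statistics passed the threshold whichever single 24 h library was left out (highest limma adjusted p 0.0245), under the block and with the trends removed. The strongest lay in an intron of Tmtc1, an endoplasmic reticulum mannosyltransferase gene, 99300 bp from the nearest protein-coding start (chr6:148344835-148345344). It measured 4.73, 4.92 and 4.37 in the Ikaros libraries and 2.10, 2.67 and 2.30 in the control libraries, a 5.00-fold difference (log2 difference 2.32, SE 0.28, limma adjusted p = 5.59e-05). It was also the single named DHS that passed in every alternative that kept it, with a highest limma adjusted p of 0.0375. Fli1 encodes an Ets-family factor of blood progenitors. A DHS in its intron (chr9:32425408-32425932) measured 4.87, 4.78 and 4.87 in the Ikaros libraries and 3.23, 3.72 and 2.67 in the control libraries, where the Ikaros libraries agreed within 0.1 and the control libraries spread over about 1 log2 unit (log2 difference 1.63, SE 0.21, limma adjusted p = 8.18e-05). A DHS between genes 24467 bp from the start of Cecr2, a chromatin remodelling subunit, held 4.79, 4.86 and 4.77 in the Ikaros libraries and 3.12, 3.18 and 2.67 in the control libraries (chr6:120641876-120642032, log2 difference 1.82, SE 0.26, limma adjusted p = 0.000487).

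Flt3, the receptor kinase of early lymphoid progenitors, had a DHS over an exon (chr5:147340906-147341442) with 4.92, 5.15 and 4.77 in the Ikaros libraries and 3.72, 3.80 and 3.58 in the control libraries. All 3 Ikaros libraries exceeded the control libraries by more than 0.9 (log2 difference 1.25, SE 0.18, limma adjusted p = 0.000673). In an intron of Mgat5, which branches N-glycans, the DHS (chr1:127309062-127309640) measured 4.82, 4.36 and 4.29 in the Ikaros libraries and 2.63, 3.05 and 3.17 in the control libraries (log2 difference 1.54, SE 0.23, limma adjusted p = 0.000673). The DHS assigned to Kmt2e, a gene of the MLL family, lay in an intron of the long noncoding RNA 5031425E22Rik, 24168 bp from the nearest protein-coding start (chr5:23409951-23410596, log2 difference 1.48, SE 0.23, limma adjusted p = 0.00118). One more lay 34716 bp from the retrogene Anapc15-ps (chr10:95707815-95708520, log2 difference 1.80, SE 0.26, limma adjusted p = 0.000553).

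Of the distal DHS lower in the Ikaros line, the strongest lay in an intron of the uncharacterised gene 4930470P17Rik (chr2:170583305-170583435), with 3.55, 3.99 and 3.87 in the Ikaros libraries and 5.67, 5.26 and 5.72 in the control libraries. The next lay 16723 bp from Gpx5 (chr13:21275939-21276077), and measured 4.63, 4.06 and 3.87 in the Ikaros libraries and 5.60, 5.70 and 5.90 in the control libraries. The control libraries were at least 0.9 above the highest Ikaros library there, and the DHS was 2.92-fold lower in the Ikaros line (log2 difference -1.55, SE 0.23, limma adjusted p = 0.000673). A DHS 12479 bp from Ski, a corepressor in TGF-beta signalling, held 4.44, 4.77 and 4.59 in the Ikaros libraries and 5.72, 5.69 and 5.91 in the control libraries (chr4:155234961-155235181, log2 difference -1.17, SE 0.17, limma adjusted p = 0.000673). Lrrc32 encodes GARP, which presents latent TGF-beta at the cell surface. A DHS 3079 bp from it (chr7:98486327-98486909) measured 4.66, 4.78 and 4.68 in the Ikaros libraries and 5.58, 5.67 and 5.78 in the control libraries (log2 difference -0.97, SE 0.16, limma adjusted p = 0.00208). The DHS near Crisp1, near Dnajb12 and in an intron of Tmem121 differed by -1.36, -0.92 and -1.38 (limma adjusted p = 0.00146, 0.00173 and 0.00169).

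A difference between lines at 24 h may or may not have been there at 0 h. For 0 h the study's methods give no tamoxifen and a separate collection, whereas the labels name the drug for these samples too. At 0 h, 12.9% of all DHS differed between the lines. Of the 427 DHS higher at 24 h, 61 were already higher at 0 h, 11 were lower at 0 h and 355 did not pass at 0 h. Among the 273 lower DHS these counts were 10 already lower, 25 higher and 238 not past the threshold. The change of the difference from 0 h to 24 h passed the threshold in 182 of the higher and 163 of the lower DHS, beside 6.26% of all DHS, counts that share the 24 h libraries with the calls. Within the Ikaros line the higher DHS had a median 24 h minus 0 h value of 0.66, and within the control line -0.51. For the lower DHS these medians were -0.66 and 0.25, and for all DHS 0.044 and -0.035. The called DHS were chosen by the 24 h values of both lines, and that choice alone pulls their medians in these directions. A change within either line therefore cannot be read from these medians. Between 0 h and 24 h the control line gave 0 calls in limma, with 3878 DHS (7.35%) at a raw p below 0.05, and the Ikaros line gave 6655 (12.6%).

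Crisp1, Fli1, Kmt2e and Anapc15-ps belonged to the DHS that differed from the start. The Fli1 intron DHS stood at 1.51 at 0 h (limma adjusted p = 0.000152) and at 1.63 at 24 h, and its change was 0.13 (SE 0.29, limma adjusted p = 0.821). The Kmt2e DHS went from 1.48 to 1.48, the DHS near Anapc15-ps from 1.65 to 1.80 and the DHS near Crisp1 from -1.25 to -1.36, and none of the 3 changes passed the threshold (limma adjusted p = 0.996, 0.834 and 0.853). Flt3, Mgat5, Satb1 and 4930470P17Rik also differed at 0 h in the direction they had at 24 h, by 0.75, 0.76, 0.73 and -0.72.

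At other DHS the difference changed between 0 h and 24 h. The Itga5 intron DHS had a difference of -0.033 at 0 h and 1.77 at 24 h, a change of 1.80 (SE 0.44, limma adjusted p = 0.0188). Slc30a5 went from 0.061 to 1.17, with a change of 1.11 (SE 0.28, limma adjusted p = 0.0218). The changes of the Cecr2 and Tmtc1 DHS were 1.40 and 1.73 (limma adjusted p = 0.0250 and 0.0149). Downward, the DHS near Gpx5 changed by -1.91 (SE 0.32, limma adjusted p = 0.00491) and that near Dnajb12, which had been higher in the Ikaros line at 0 h by 0.64, by -1.56 (SE 0.21, limma adjusted p = 0.00115). Egr1 likewise passed from 0.46 at 0 h to -0.90 at 24 h. With the trends removed, the limma adjusted p of the change was 6.61e-05 for Gpx5 and 0.0111 for Dnajb12, and from 0.126 up to 0.275 for Egr1, Itga5, Tmtc1, Slc30a5 and Cecr2.

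Over the time course, the higher DHS had median differences of 0.051 (0 h), 0.52 (2 h), 0.68 (6 h), 1.24 (12 h), 0.96 (18 h) and 1.27 (24 h). The lower DHS had, in that order, 0.098, -0.49, -0.55, -0.78, -0.67 and -0.82. At 12 h, 310 of the 427 higher and 191 of the 273 lower DHS were called in the same direction and 0 in the other, beside 1.31% of all DHS called at that time. Counts for 18 h were 124 and 74 beside 0.699%. Between 12 h or 18 h and 24 h the difference itself gave 0 calls in limma, with 0 and 78 (0.148%) at a raw p below 0.05, so no order of these times was shown. Against 2 h it gave 0 calls too, with 1503 (2.85%) at a raw p below 0.05. At 6 h, 0.578% of all DHS were called, and at 2 h 0.195%. The raw shares for 2 h, 12 h and 18 h against 24 h all lie under the 0.05 that independent values would give. After ARSyN the group means are not free of each other, so calls shared between 12 h or 18 h and 24 h are not a second observation.

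**Figure D3:**
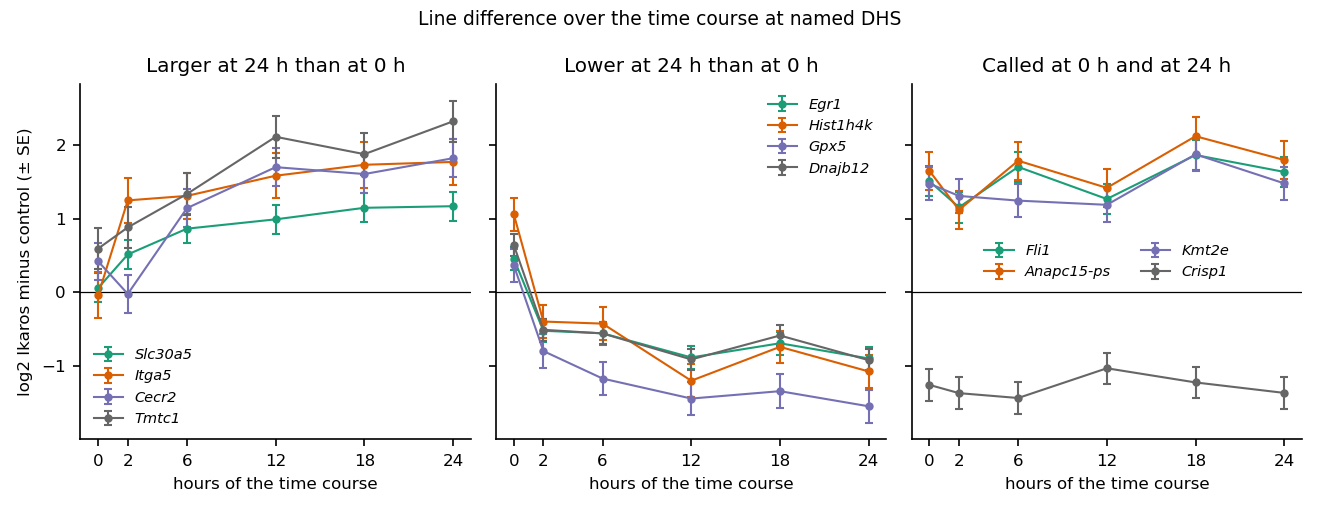
Lines join the log2 difference of Ikaros minus control (± SE) at 0, 2, 6, 12, 18 and 24 h for 12 named DHS, 4 whose difference was larger at 24 h than at 0 h (left), 4 whose difference was lower (middle) and 4 that were called at both times (right). The DHS at right stay at or beyond 1 in size at every time, whereas those at left and in the middle start between -0.033 and 1.06 at 0 h.

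Called DHS also lay in runs. Joining DHS called in the same direction with gaps of at most 100000 bp gave 14 runs of 3 or more, 5 higher and 9 lower, and the 6 with most calls outside Ikzf1 are described here. The largest lower run spans 86673 bp of chromosome 11 (chr11:69037725-69124398) around Aurkb, the mitotic kinase Aurora B, and Hes7, a Notch-responsive repressor. It holds 20 DHS, of which 17 were below 0 and 6 were called, with a median of -0.54 at 24 h and 0.077 at 0 h. Its promoter DHS, at a start of the gene 9130213A22Rik within Hes7 (chr11:69123427-69123650) measured 5.12, 5.16 and 4.85 in the Ikaros libraries and 5.78, 6.28 and 6.10 in the control libraries, a 2.02-fold difference with no overlap (log2 difference -1.01, SE 0.23, limma adjusted p = 0.0258). Its change from 0 h was -1.66 (SE 0.33, limma adjusted p = 0.00846). The other 5 called DHS lay between genes, with differences of -0.96 to -0.70. All 6 missed the threshold without at least 1 of the 24 h libraries, with limma adjusted p up to 0.144, and 2 of them did so with the trends removed (0.0569 and 0.124).

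The second lower run covers 36053 bp of chromosome 17 (chr17:35200561-35236614) at Tnf, the cytokine tumour necrosis factor, and reaches Nfkbil1 and Atp6v1g2. Of its 10 DHS, 9 were below 0 and 4 were called. The Tnf promoter DHS (chr17:35201968-35202170) measured 4.99, 4.67 and 4.52 in the Ikaros libraries and 5.78, 5.34 and 5.98 in the control libraries (log2 difference -0.97, SE 0.20, limma adjusted p = 0.0152), and the DHS over a Tnf exon (chr17:35200561-35200731) measured 4.97, 4.67 and 4.85 in the Ikaros libraries and 5.95, 5.47 and 6.03 in the control libraries (log2 difference -0.99, SE 0.23, limma adjusted p = 0.0278). In both, the lowest control library exceeded the highest Ikaros library. The 2 DHS at Nfkbil1 and Atp6v1g2 differed by -0.70 and -0.80 and missed the threshold under the replicate block (limma adjusted p = 0.0663 and 0.0511). They also missed it with the trends removed, at -0.43 (limma adjusted p = 0.260) and -0.64 (limma adjusted p = 0.197), while the pair at Tnf passed. Without 1 of the 24 h libraries each of the 4 missed it, with values up to 0.181.

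Of the higher runs described, that at Cxcr4 held no call at 0 h. Cxcr4 is the chemokine receptor that holds B-cell precursors in the bone marrow niche. The run (chr1:128614896-128767368) begins 22869 bp from the nearest protein-coding start and ends 174828 bp from it. All 8 DHS in its 152472 bp were above 0 at 24 h and 4 were called, with a median of 1.02 beside 0.054 at 0 h. The nearest to the gene (chr1:128614896-128615423) measured 5.64, 5.50 and 5.06 in the Ikaros libraries and 3.92, 4.42 and 4.59 in the control libraries, a 2.13-fold difference (log2 difference 1.09, SE 0.24, limma adjusted p = 0.0210). The next pair (chr1:128704855-128705513 and chr1:128711190-128711714) differed by 1.32 and 1.02 (limma adjusted p = 0.0210 and 0.0208). The fourth differed by 1.08 and missed the threshold under the replicate block (limma adjusted p = 0.0512). Of the 4, the nearest and that at chr1:128711190-128711714 passed with the trends removed (limma adjusted p = 0.00430 and 0.00966) and the others did not (0.180 and 0.217), and each of the 4 missed the threshold without at least 1 of the 24 h libraries, with values up to 0.187. Of the changes from 0 h, only that of the second DHS passed, at 1.35 (SE 0.41, limma adjusted p = 0.0472), and under the block it did not (limma adjusted p = 0.0605).

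The run in Tmtc1 (chr6:148257753-148345344) had the largest median of the 6, with 5 of 6 DHS called, all 6 above 0 and a median of 1.67. Its second strongest DHS (chr6:148341737-148342239) measured 4.18, 3.91 and 4.05 in the Ikaros libraries and 2.18, 1.96 and 1.87 in the control libraries, a 4.12-fold difference (log2 difference 2.04, SE 0.26, limma adjusted p = 8.18e-05). At 0 h the median was 0.86 and 3 of the 5 were already higher. The 2 strongest passed also after removal of the trends, whereas the other 3 did not (limma adjusted p = 0.177, 0.182 and 0.385), and the difference of the last of them went from 1.76 to 0.91. At Anapc15-ps (chr10:95643709-95722731) all 6 DHS were above 0, 4 were called and the same 4 were called at 0 h, with medians of 1.16 at 24 h and 0.93 at 0 h. Itga5 encodes the integrin chain that pairs with beta-1 to bind fibronectin. Its run (chr15:103305077-103378580) had 13 of 13 DHS above 0 and 4 called. The DHS in the Itga5 intron (chr15:103361398-103361578) measured 4.88, 4.76 and 4.87 in the Ikaros libraries and 3.18, 2.59 and 3.43 in the control libraries, and the Ikaros libraries agreed within 0.2 (log2 difference 1.77, SE 0.31, limma adjusted p = 0.00384). The other 3 called DHS of the run had been higher at 0 h, by 0.80, 1.51 and 1.33, and lay outside Itga5. The first lay in an intron of Gm49482, 5265 bp from the nearest protein-coding start, that of Gpr84. The others were promoter DHS of Gm37322. With the trends removed 2 DHS at Anapc15-ps missed the threshold (limma adjusted p = 0.175 and 0.0758), and all 4 of the Itga5 run passed. Under the block, the same 2 DHS at Anapc15-ps and 1 at Itga5 missed the threshold (limma adjusted p = 0.0628, 0.0525 and 0.0643). Without 1 of the 24 h libraries, 3 DHS of the Tmtc1 run, 2 at Anapc15-ps and 2 at Itga5 missed it, with values up to 0.155, 0.249 and 0.164.

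**Figure D4:**
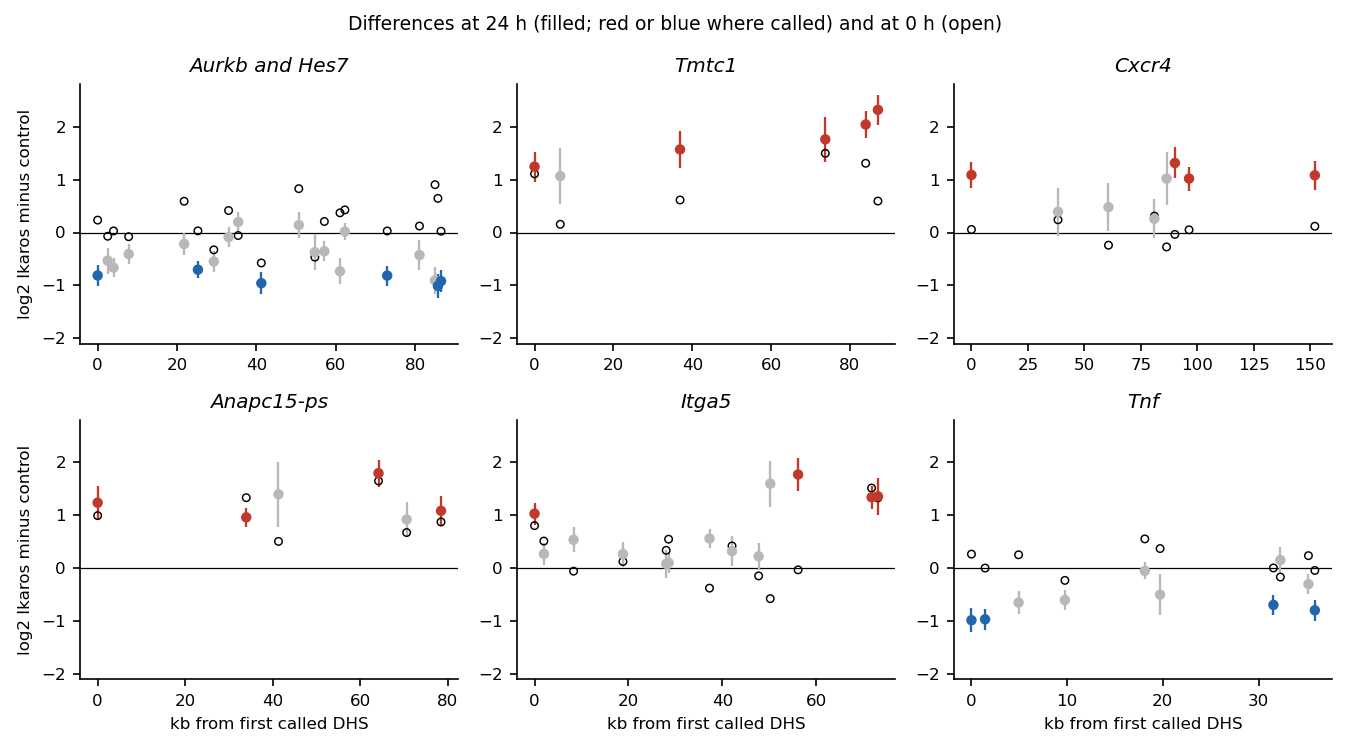
Each panel is a run of called DHS, with the distance in kb from its first called DHS on the horizontal axis and the log2 difference of Ikaros minus control on the vertical axis (filled, 24 h ± SE, red or blue where called, grey where not; open, 0 h). In the Cxcr4 and Tnf panels the filled called points stand apart from the open ones, and in the Anapc15-ps panel they lie near them.

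Gene lists were read through all DHS of their genes, as promoter, within the gene or as nearest within 50000 bp. Beside 0.809% of all DHS called higher and 0.517% called lower, the 119 DHS of pre-B receptor signalling held 2 higher and 1 lower, and the 165 DHS of B-lineage transcription factors held 4 higher and 0 lower. The intron DHS of Ebf1 (chr11:44881238-44881750), the factor that specifies the B lineage, measured 6.17, 5.82 and 5.56 in the Ikaros libraries and 5.17, 5.01 and 5.21 in the control libraries (log2 difference 0.72, SE 0.14, limma adjusted p = 0.00985). Foxo1, which drives Rag transcription, had an intron DHS (chr3:52343471-52343983) at 4.20, 4.35 and 4.25 in the Ikaros libraries and 2.77, 3.37 and 3.46 in the control libraries (log2 difference 1.07, SE 0.25, limma adjusted p = 0.0287). Mef2c, a factor of pre-B receptor signalling, had one (chr13:83656921-83657053) with 5.29, 4.97 and 4.32 in the Ikaros libraries and 3.02, 3.28 and 3.14 in the control libraries, and its difference had been -1.10 at 0 h (log2 difference 1.71, SE 0.44, limma adjusted p = 0.0444 at 24 h). The DHS 27587 bp from Bcl6, a repressor that protects pre-B cells, was higher by 1.04 (limma adjusted p = 0.0278), after 0.74 at 0 h (0.0404). All 4 lay outside promoters. None of the 4 passed with the trends removed (limma adjusted p from 0.0639 to 0.149).

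Of the pre-B receptor kinases, Blk (intron, 1.34) and Lyn (between genes, 1.22) were higher and the PI3 kinase subunit gene Pik3cd (intron, -0.79) lower. Lyn measured 3.65, 3.79 and 3.03 in the Ikaros libraries and 2.72, 2.00 and 2.09 in the control libraries (log2 difference 1.22, SE 0.28, limma adjusted p = 0.0278). Under the block, Blk and Pik3cd missed the threshold (limma adjusted p = 0.0663 and 0.0504). None of the 3 passed with the trends removed, and the differences were 0.58 (limma adjusted p = 0.383) for Lyn, 1.22 (limma adjusted p = 0.108) for Blk and -0.62 (limma adjusted p = 0.108) for Pik3cd. At promoters of this list, 17 of 24 DHS were below 0, with a median of -0.25 beside -0.046 for all promoters, 7 lay wholly below the control values and none was called. Of all promoter DHS 56.8% were below 0, and of all DHS 10.4% lay wholly below. Igll1, a surrogate light chain gene, measured 4.99, 4.61 and 4.68 in the Ikaros libraries and 5.27, 5.48 and 5.84 in the control libraries (limma adjusted p = 0.0524). The promoter of Pax5, the B-lineage commitment factor, measured 5.32, 5.32 and 5.39 in the Ikaros libraries and 5.98, 6.05 and 6.16 in the control libraries (limma adjusted p = 0.0567). Both pairs of groups were separate and both fell short of the threshold. Pax5 belongs to the list of B-lineage transcription factors, whose 31 promoter DHS had a median of -0.052. Of those 31, Pax5 was the 1 wholly below the control values and 3 lay wholly above, beside 15.1% of all DHS wholly above.

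In the interleukin 7 receptor list, 0 of 60 DHS were higher and 1 lower, beside 0.809% and 0.517% of all DHS. The lower DHS was at Cish, a STAT5-induced inhibitor of cytokine signals. Its promoter DHS (chr9:107296321-107296984) measured 4.08, 4.18 and 3.94 in the Ikaros libraries and 4.70, 4.80 and 4.90 in the control libraries (log2 difference -0.74, SE 0.15, limma adjusted p = 0.0149). Among 102 DHS of cyclins, Cdks and inhibitors, 0 were higher and 1 was lower, the promoter DHS of the G1 cyclin gene Ccnd2 (chr6:127150980-127151110), with 5.02, 4.67 and 4.85 in the Ikaros libraries and 5.44, 5.62 and 6.19 in the control libraries (log2 difference -0.90, SE 0.21, limma adjusted p = 0.0287). Nutrient uptake and PI3K-mTOR control held 2 lower and 0 higher of 104 DHS. They were the promoter of Slc3a2 and an intron of Slc7a5, which together encode a large neutral amino acid transporter. Slc3a2 measured 4.73, 5.17 and 4.80 in the Ikaros libraries and 5.96, 5.62 and 5.97 in the control libraries (log2 difference -0.95, SE 0.20, limma adjusted p = 0.0148), and Slc7a5 differed by -0.68 (limma adjusted p = 0.0106). Every one of these DHS had separate groups, as had 698 of all 700 called DHS. With the trends removed, Cish (0.0399), Slc3a2 (0.0171) and Slc7a5 (0.0339) kept a limma adjusted p under the threshold, and Ccnd2 (0.0589) did not.

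Replication-dependent histone genes held 3 lower and 0 higher of 61 DHS, at Hist1h4j, Hist1h4k and Hist1h1d, beside 0.517% lower and 0.809% higher of all DHS. The Hist1h4k promoter DHS (chr13:21750475-21750676) measured 4.51, 4.41 and 4.55 in the Ikaros libraries and 5.45, 5.46 and 5.78 in the control libraries, 2.10-fold lower (log2 difference -1.07, SE 0.22, limma adjusted p = 0.0142). At 0 h it had been higher in the Ikaros line by 1.06 (limma adjusted p = 0.00286), and its change of -2.13 passed also with the trends removed (limma adjusted p = 0.00745). Histone H4 genes are near-identical copies, and the methods kept only reads that mapped to 1 place, so reads from identical stretches are not in these values. Immediate early genes held 2 lower and 0 higher of 76 DHS, the Egr1 promoter and a DHS 2424 bp from Junb, a subunit of AP-1, which differed by -0.83 (limma adjusted p = 0.0322). Adhesion and migration genes held 3 higher and 0 lower of 98, at Cxcr4, at Itga5 and in an intron of Ptk2b, a focal adhesion family kinase (log2 difference 1.29, SE 0.30, limma adjusted p = 0.0258). The Ptk2b difference was 0.67 (limma adjusted p = 0.357) with the trends removed, past the threshold no longer, and those of Junb and Hist1h1d also missed it (limma adjusted p = 0.0505 and 0.128).

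Outside the B lineage, an intron DHS of Itgam, the myeloid integrin CD11b, was the 1 call of 27 myeloid DHS (chr7:128100668-128101290). It measured 5.38, 5.17 and 4.71 in the Ikaros libraries and 4.21, 3.88 and 3.96 in the control libraries (log2 difference 1.07, SE 0.19, limma adjusted p = 0.00436), while the Itgam promoter had no DHS. Early progenitor genes held 1 higher and 1 lower of 37 DHS, beside 0.809% and 0.517% of all DHS. The higher was the Flt3 exon DHS. The lower lay in an intron of Myb (chr10:21157993-21158493), the progenitor factor c-Myb, with 4.44, 4.67 and 4.53 in the Ikaros libraries and 5.12, 5.36 and 5.16 in the control libraries (log2 difference -0.66, SE 0.14, limma adjusted p = 0.0174). Single calls stood in DNA replication (Pola1 intron, 1.56, of 42 DHS), ribosomal protein genes (near Rpl22l1, 1.39, of 158), nuclear oxidative phosphorylation genes (near Ndufs7, -1.05, of 149) and immunoglobulin segments (Ighv1-85, 1.59, of 73). Under the block, Rpl22l1 and Ndufs7 missed the threshold (limma adjusted p = 0.0529 and 0.0512). All 4 missed it with the trends removed, at 0.87 (limma adjusted p = 0.371) for Pola1, 0.38 (limma adjusted p = 0.738) for Rpl22l1, -0.89 (limma adjusted p = 0.0838) for Ndufs7 and 1.02 (limma adjusted p = 0.257) for Ighv1-85. So did the Myb DHS, at -0.50 (limma adjusted p = 0.140). No call fell among the 43 DHS of V(D)J recombination, 57 of the Bcl2 family, 36 of MHC class II, 46 of the T lineage and Notch, 11 erythroid, 11 muscle or 20 Hox DHS. With 1.33% of all DHS called, lists of these sizes can hold 1 call or none without differing from the rest.

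List medians at 24 h stood on both sides of the 0.055 of all DHS. They ran from -0.13 for MHC class II and -0.10 for immediate early genes to 0.18 for early progenitor genes and 0.25 for immunoglobulin segments, whose 73 DHS all lie at segment starts. Of those 73, 14 lay wholly above and 3 wholly below the control values, beside 15.1% and 10.4% of all DHS. Promoter medians were -0.27 for adhesion, -0.23 for immediate early and -0.28 for nutrient uptake genes beside the -0.046 of all promoters, and in the other direction 0.27 for the 4 myeloid, 0.19 for the 5 muscle and 0.042 for the 5 erythroid promoter DHS and 0.25 for immunoglobulin segments. Of the 23 DHS named through lists and not among the 14 promoter or 14 distal DHS above, 22 missed the threshold without at least 1 of the 24 h libraries, the exception being the Itga5 intron DHS, with limma adjusted p up to 0.211.

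Sequence features were counted in a 200 bp window centred on each DHS, on both strands, for 13 short elements whose matches may overlap. A window reaches past a DHS narrower than 200 bp. Widths up to 200 bp were found in 32.8% of the higher, 28.6% of the lower and 46.1% of all DHS. TGTGGTT, the Runx-type element, occurred in 23.9% of the higher DHS, 7.69% of the lower and 9.54% of all 52788. The Ebf-type element, TCCC and GGGA spaced by any 2 bases, occurred in 9.89% of the lower DHS, 3.75% of the higher and 2.69% of all. It holds GGGA, the core of Ikaros elements, on both strands, so its letters cannot tell an Ebf site from an Ikaros site. TGGGAA, the Ikaros-type element, occurred in 22.3% of the lower, 13.6% of the higher and 17.2% of all DHS. The E-box CAGCTG was in 18.0% of the higher, 18.3% of the lower and 14.9% of all, and GGGCGG, the Sp-type element of CpG-rich promoters, in 2.58%, 19.0% and 16.9%. TGTTTAC, of the forkhead type, was in 4.22% of the higher, 1.47% of the lower and 2.30% of all DHS. The shares of the Ets elements CCGGAAGT (0.234%, 1.83% and 2.14%) and GAGGAAGT (6.79%, 5.49% and 5.07%) and of AP-1 TGANTCA (7.26%, 7.33% and 6.34%) follow in the same order. For CAGGTG they were 13.8%, 20.5% and 15.99%, for an IRF-type pair of GAAA spaced by any 2 bases 2.58%, 1.83% and 3.02%, for the CTCF-type AGGGGGCGC 0.234%, 2.93% and 2.81% and for CCAAT 22.5%, 20.9% and 23.1%.

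Since the called groups differ in GC content, the shares were also read within GC bins of distal DHS. In windows over 40% and up to 45% GC, 33.0% of 103 higher DHS held TGTGGTT beside 13.6% of 8164 distal DHS, and from 45% to 50% the shares were 27.3% of 77 and 12.3% of 11544. Below 40% GC they were 18.1% of 171 and 13.2% of 4066, and from 50% to 55% 23.5% of 34 and 9.96% of 9519. Of the lower DHS, 19.4% of 31 from 45% to 50% and 9.52% of 63 from 50% to 55% held TGTGGTT. From 55% to 60% it was in 5.88% of 51 lower DHS beside 7.32%, and over 60% in 3.57% of 28 beside 3.74%. CAGCTG was in 8.19% of the 171 higher DHS below 40% GC beside 6.67%, and in 20.4% beside 10.1% from 40% to 45%. From 45% to 50% it was in 28.6% of 77 higher and 9.68% of 31 lower DHS beside 15.2%. From 50% to 55% it was in 38.2% of 34 higher and 17.5% of 63 lower DHS beside 20.5%. Among lower DHS the shares were 27.5% of 51 beside 24.6% from 55% to 60%, and 39.3% of 28 beside 25.5% over 60%. Groups under 20 DHS are left out. The Ebf-type element was held by 21.6% of 51 lower DHS and 5.30% of 4396 distal DHS between 55% and 60% GC, by 7.94% of 63 and 3.87% of 9519 between 50% and 55%, and by 14.7% of 34 higher DHS in that bin. Between 45% and 50% it was in 12.9% of 31 lower and 6.49% of 77 higher DHS beside 3.12%. Over 60% it was in 10.7% of 28 lower DHS beside 4.30%. Of the higher DHS, 1.75% of 171 below 40% held it beside 0.738%, and 0.971% of 103 from 40% to 45% beside 1.95%. The Ikaros-type element was held by 27.5% of the 51 lower DHS between 55% and 60% beside 20.2%, and by 15.9% of the 63 between 50% and 55% beside 19.0%. It was held by 25.8% of 31 lower DHS from 45% to 50% beside 18.5%, and by 32.1% of 28 over 60% beside 15.1%. Of the higher DHS, 12.3% of 171 below 40% held it beside 13.1%, and 12.6% of 103 from 40% to 45% beside 17.0%. From 45% to 50% it was in 14.3% of 77 higher DHS beside 18.5%, and from 50% to 55% in 23.5% of 34 beside 19.0%. Over all 39131 distal DHS, called or not, those with TGTGGTT had a median difference of 0.22 at 24 h and those without it 0.095, and at 0 h the medians were -0.076 and -0.21. Those with the Ebf-type element had 0.027 at 24 h and those without it 0.11, and those with TGGGAA 0.055 and 0.12. Level also moves with these groups, and its part in the shares was not tested.

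**Figure D5:**
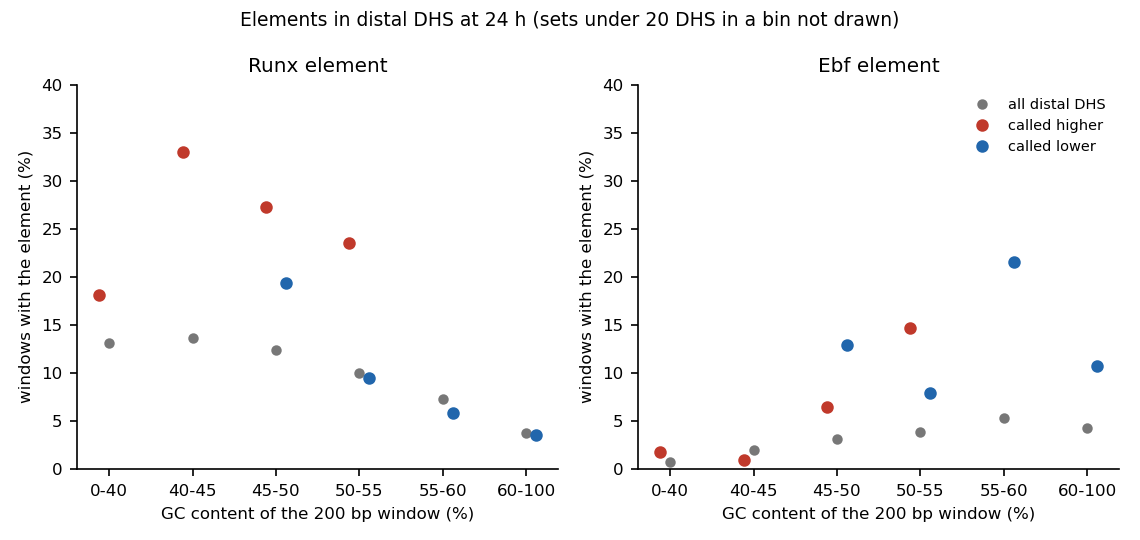
The share of distal DHS whose centred 200 bp window holds the Runx-type element (left) or the Ebf-type element (right) is plotted by GC content of the window for DHS called higher (red), called lower (blue) and all distal DHS (grey), leaving out groups under 20 DHS in a bin. The red points at left lie above the grey ones in all 4 bins drawn, and the blue points at right lie above them in all 4. The Ebf-type element also holds the GGGA core of Ikaros elements.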

How the data were processed

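Analysed were the 6 DNase-seq libraries of 24 h, within a fit over all 36. As its methods describe, the authors cut reads to 36 bp, placed them on mm10 by Bowtie2, joined HOMER peaks of a narrow and a broad search into consensus DHS, took read coverage by bedtools, left out low DHS, applied RPKM and TMM scaling and then ARSyN. The values the authors deposited are on a log2 scale. ARSyN uses the groups, so spread and group means are not independent of it. Depth per library is unknown, no counting interval is given, and the number of libraries limits the precision. Starts are printed as deposited, and their first base (0 or 1) is uncertain by 1 bp.

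DHS were annotated with GENCODE M21 on GRCm38, and 25.87% lay within 1000 bp of a transcription start beside 7.759% after a shift of 10000 bp. Differences were fitted with limma 3.58.1 in R 4.3.3 (12 group means, eBayes with an intensity trend, two-sided, Benjamini-Hochberg over all DHS, threshold 0.05). Tables were made in Python 3.11.15, and the fit was tested on simulated data. Labels call the replicates samples of batches 11, 12 and 13 shared by both lines, which pairs them, although deviations of the same number correlated at -0.139, 0.0184 and -0.175. The members and lists were chosen with earlier results of these data known.

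Named DHS were called, had separate groups and lay outside Ikzf1, Myc and glycolysis genes. They are the 7 highest and 7 lowest moderated statistics among promoters of protein-coding genes, the same among other DHS, 1 per gene, the 6 runs with most calls and every called DHS of 21 gene lists. Igll1 and Pax5, which missed the threshold, were named after their values were seen. Results of some genes of the lists and markers are not reported here. Alternatives were the replicate block, the 24 h libraries alone, no intensity trend, a spread per line, quantile normalization, median centring, smooth trends (splines of 5 df) removed, a filter below the 25th percentile of level, a pseudocount of 1 and leaving out each library or replicate number.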

Additional observations from a re-analysis of the deposited data

Results flagged for a closer look

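The difference between the lines at 24 h differed from that at 0 h, by limma's test of the change itself with Benjamini-Hochberg adjustment over all DHS, at 35 of the 74 DHS named in the report. Each value is the 24 h difference less the 0 h difference, on the log2 scale. The change passed the threshold in 6.26% of all DHS, and the 35 were drawn from DHS called at 24 h, whose libraries the test shares. The 0 h cells were collected separately from the time course.

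In 23 of the 35 the difference was lower at 24 h. These changes were, from the largest fall, at Hist1h4k promoter (-2.13), Hist1h4j promoter (-2.03), Gpx5 intergenic DHS (-1.91), Aurkb and Hes7 locus, DHS 5 (-1.66), Dnajb12 intergenic DHS (-1.56), Egr1 promoter (-1.35), Tnf locus, DHS 1 (-1.25), Tmem121 intron DHS (-1.16). Next in size were Hist1h1d exon DHS (-1.11), Ptpn7 promoter (-1.09), Ccnd2 promoter (-1.07), Aurkb and Hes7 locus, DHS 1 (-1.05), Lrrc32 intergenic DHS (-1.02), Zmpste24 promoter (-0.995), Tnf locus, DHS 2 (-0.97), Pik3cd intron DHS (-0.93). The smallest falls were at Ski intergenic DHS (-0.93), Clic5 promoter (-0.86), Aurkb and Hes7 locus, DHS 2 (-0.73), Cish promoter (-0.71), Myb intron DHS (-0.71), Slc7a5 intron DHS (-0.66), Ankrd2 promoter (-0.60).

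In 12 the difference was higher at 24 h. These were Ebf1 intron DHS (0.82), Itgam intron DHS (0.96), Slc30a5 promoter (1.11), Cxcr4 locus, DHS 2 (1.35), Poli promoter (1.38), Cecr2 intergenic DHS (1.40), Lyn intergenic DHS (1.45), Rpl22l1 intergenic DHS (1.63), Tmtc1 intron DHS (1.73), Itga5 locus, DHS 2 (1.80), Ighv1-85 promoter (2.17) and Mef2c intron DHS (2.81). With the replicate block 29 of the 35 passed, with the trends removed 5, and with the 0 h and 24 h libraries fitted alone 2.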

How the results depend on the processing

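Counts of called DHS depended on the libraries and the scaling, and the cause was not tested. Of 700 calls (427 higher, 273 lower), single 24 h libraries left out gave 110 to 298 calls, 49 to 190 higher and 58 to 109 lower, and leaving a replicate number out of all groups gave 10 to 66, 6 to 31 higher and 2 to 35 lower. Smooth trends removed left 342 (163 higher, 179 lower). The filter on low values, which kept 39591 DHS, left 431, 188 of them higher, and median centring left 259 higher. Quantile normalization gave 402 lower. Fitting only the 24 h libraries gave 700, of which 340 were shared. The replicate block gave 505. No intensity trend, a spread per line and a pseudocount of 1 gave 782, 678 and 778.

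The 10 named DHS that missed the threshold under the block are given with their values in the report. Every named difference kept its direction in every alternative, and 509 of 1314 re-fits missed the threshold. Of the 74 named DHS, 64 passed with the replicate block, 66 with median centring, 59 with quantile normalization, 51 with only the 24 h libraries and 40 with the trends removed. Without single 24 h libraries 27 to 51 passed. List medians moved by more than 1 SD between replicates in 48 of 378 re-fits. Depth is unknown, and 3 libraries per group limit the precision.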
